A study of Homo sapiens with 5 samples.

Results

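The contacts described here join chromosomes 16, 17, 19, 20 and 22 to each other, as measured by in situ Hi-C, an assay that ligates and sequences DNA ends lying close together in the nucleus. A member is a pair of 1 Mb bins whose 2 bins lie on different chromosomes of these 5. The files name 47913 such bin pairs, of 4407237 between different chromosomes in all, and 37310 of them had a value in every library. After bins with low totals were left out, 35125 members were used, of 3638266 bin pairs between chromosomes. They fall into 10 of the pairs that the 23 chromosomes form and into 32 of the 802 arm pairs.

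All libraries came from RMG1, a human ovarian clear cell carcinoma line. The ARID1A KO group held 2 libraries, labelled ARID1A KO and CAPH2 wild type, in which ARID1A had been knocked out by CRISPR. The CAPH2 KD group held 2 libraries, labelled ARID1A wild type and CAPH2 KD, made with a hairpin against CAPH2. The control was 1 library, wild type for both genes, made with a control hairpin, and both KO and KD were set against it. The control therefore shares the hairpin method with KD and not with KO, and the labels do not say whether replicates came from separate cultures or clones. Replicate error and the p-values below may thus cover technical spread alone.

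Each chromosome occupies its own territory in the interphase nucleus, and in human cells small chromosomes rich in genes tend to lie towards the interior, where they touch each other. Condensin II, of which CAPH2 is a subunit, compacts chromosomes along their length, and in fruit flies it keeps territories apart. ARID1A is a subunit of the BAF chromatin remodelling complex that binds DNA, and its gene is often mutated in ovarian clear cell carcinoma. The study asked how loss of either protein changes the way chromosomes are partitioned.

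The chromosomes met their label. In RefSeq's annotation of GRCh38, protein-coding genes per 1 Mb bin placed chromosome 19 at rank 1 of 23 with 24.2 genes, chromosome 17 at rank 2 with 14.3, and chromosomes 16, 22 and 20 at ranks 4, 5 and 6 with 9.38, 8.67 and 8.52. The 5 chromosomes span 52 to 91 bins each.

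The deposited values are a balanced contact signal, from which whole contacts could be recovered. The recovered contacts came to 31.4 and 32.5 M (1e6) in the KO libraries, 55.7 and 85.0 M in the KD libraries and 47.9 M in the control. The members held 158357 and 152124 contacts in KO, 215295 and 336819 in KD and 178350 in the control. A single member had a median of 3 contacts in each KO library, 5 and 8 in the KD libraries and 4 in the control, so single bin pairs are too shallow to compare and sums over many of them carry the results. Each of the 10 chromosome pairs rested on 8631 to 52850 contacts per library. The exact Poisson interval at 95%, which covers counting error only, reached at most 0.031 to either side on the log2 scale.

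Contact was expressed as log2 of the observed signal over that expected from the totals of the 2 partners, with the matrix diagonal left out of the totals. A value of 0 means as much contact as the totals alone would give if all signal, within and between chromosomes, were spread at random. Most pairs of different chromosomes therefore lie below 0, and the median of all chromosome pairs was -1.17 and -1.10 in KO, -1.08 in both KD libraries and -1.17 in the control. On this scale the 10 pairs of small chromosomes stood far above that, with medians of -0.19 and -0.14 in KO, -0.02 in both KD libraries and -0.16 in the control. The 10 pairs held ranks 1 to 18 among all chromosome pairs over the 5 libraries. In all, 15 pairs were among the 20 highest of every library, these 10 included. Of the others, 21 with 22 had 0.09 and 13 with 19 had -0.03 in the control. With expectations set by totals between chromosomes only, medians of the 10 pairs were 0.33 and 0.31 in KO, 0.48 in both KD libraries and 0.42 in the control. Those of all pairs were 0.05 and 0.03 in KO and 0.03 in KD and the control, a smaller gap. The control value of 17 with 20 was 0.12, below the median of 0.13 for pairs among chromosomes 1 to 5.

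Chromosome 22 had the most contact with the rest of the set. The pair of 19 with 22 had values of 0.21 and 0.35 in KO, 0.49 and 0.46 in KD and 0.33 in the control, and held rank 1 of all chromosome pairs in all 5 libraries, an order that turned when the regions around strong joins, defined below, were left out. The pair of 20 with 22 had values of 0.18 and 0.13 in KO, 0.44 and 0.45 in KD and 0.26 in the control, which was rank 2 in all 5. On the linear scale the control therefore showed 1.26 times the expected signal between 19 and 22 and 1.20 times that between 20 and 22. The pair of 17 with 22 followed at rank 3 in every library, with 0.09 and 0.13 in KO, 0.26 in both KD libraries and 0.13 in the control. The pair of 16 with 22 had -0.06 and -0.05 in KO, 0.23 and 0.22 in KD and 0.04 in the control. It was the only one of the 10 pairs on opposite sides of expectation in KO and in the other libraries.

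The 6 pairs without chromosome 22 lay lower, with a control median of -0.32 against 0.20 for the 4 pairs with it. The pair of 17 with 19, the most gene-dense chromosomes, had -0.04 and 0.05 in KO, 0.07 and 0.08 in KD and -0.04 in the control. On this scale the lowest of the 10 pairs in the control was 16 with 17. It had -0.40 and -0.39 in KO, -0.26 and -0.25 in KD and -0.39 in the control. Between these extremes, 19 with 20 had -0.38 and -0.25 in KO, -0.25 in both KD libraries and -0.37 in the control. The KO libraries of that pair differed from each other by more than KD differed from control.

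The other 3 pairs behaved alike in level. The pair of 16 with 19 had -0.32 and -0.23 in KO, -0.21 in both KD libraries and -0.33 in the control. The pair of 16 with 20 had -0.37 and -0.32 in KO, -0.11 and -0.12 in KD and -0.28 in the control. The pair of 17 with 20 had -0.35 and -0.29 in KO, -0.16 and -0.15 in KD and -0.30 in the control. On this scale both KD libraries lay above the control in all 10 pairs, and the KO means lay closer to it than the KD means. With totals between chromosomes only, given below, both KO libraries lay below the control in all 10.

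**Figure D1:**
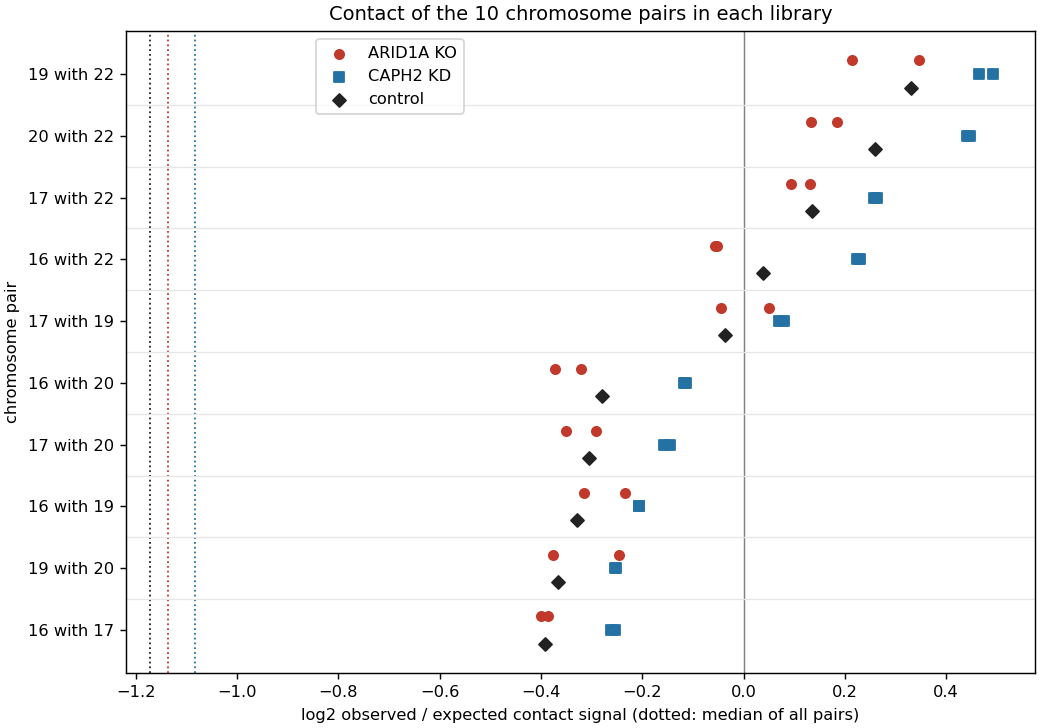
Log2 of observed over expected contact signal (horizontal axis) for the 10 pairs among chromosomes 16, 17, 19, 20 and 22 (rows, sorted by the control), with 1 point per library for ARID1A KO (red circles), CAPH2 KD (blue squares) and the control (black diamonds). Dotted lines give each group's median over all chromosome pairs; the KD points sit to the right of the control in every row.

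Taken chromosome by chromosome on the same scale as these pairs, the order of contact with the other 4 had 22 first and 16 last in every library. For chromosome 22 the value was 0.10 and 0.13 in KO, 0.34 in both KD libraries and 0.18 in the control. For chromosome 16 it was -0.32 and -0.28 in KO, -0.13 in both KD libraries and -0.28 in the control. No chromosome outside the set came as close: in the control, chromosome 21 had the next value, -0.32, and chromosome X the lowest, -1.65. Of the signal that chromosome 22 shared with other chromosomes, 17.4% and 16.5% went to the other 4 in KO, 19.6% and 19.5% in KD and 18.6% in the control. This share was lower in both KO libraries and higher in both KD libraries than in the control. The last place of 16 may not hold with totals between chromosomes only, where the order was not computed. On that scale 16 with 19, 20 and 22 had 0.40, 0.43 and 0.70 in the control. For 17 with the same partners the values were 0.40, 0.12 and 0.51, and 17 with 20 was the lowest of the 10 pairs.

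All 10 pairs had higher values in both CAPH2 KD libraries than in the control, although none passed the test, by 0.11 to 0.19 on the log2 scale, with a median of 0.14. The largest differences were 0.19 (SE 0.022, n = 2 against 1) for 16 with 22 and 0.18 (SE 0.032) for 20 with 22, and the smallest was 0.11 (SE 0.048) for 17 with 19. Higher contact in KD was not limited to these pairs, since both KD libraries lay above the control in 97.2% of all chromosome pairs, whose median difference was 0.094. No chromosome pair passed at an adjusted p of 0.05 (percent called 0) in limma's moderated test with Benjamini-Hochberg adjustment, and 99 had an unadjusted p under 0.05. Among the 10 pairs, 6 had an unadjusted p under 0.05, and adjusted p ranged between 0.109 and 0.241.

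Contact between chromosomes made up more of the signal in KD as a whole. The share of off-diagonal signal lying between chromosomes was 40.9% and 42.8% in KO, 44.0% and 44.1% in KD and 41.4% in the control. With expectations set by totals between chromosomes only, both KD libraries still lay above the control in all 10 pairs, where 48.2% of all pairs did so, and the median difference of the 10 was 0.062 against 0.0028 for all pairs. The test depends on where the spread is taken: with only the KD and control libraries in the fit, 244 chromosome pairs passed, all 10 of the small chromosomes among them and all 10 higher. Leaving out either KO library also gave 244 and 10, so the count of 0 rests on the spread between the 2 KO libraries.

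The KD libraries agreed closely with each other. Over the 10 pairs the SD between the KD libraries reached at most 0.020, against 0.095 between the KO libraries. Chi-square per degree of freedom for their recovered bin totals was 7.18 in KD and 103 in KO. In bin totals both groups thus differed by more than counting noise, the KO libraries by far more. After bin totals were allowed for, chi-square per bin pair over the members was 1.04 in KO and 1.01 in KD. Both are close to counting noise, at the few contacts that single bin pairs hold.

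In the balanced signal, with contacts within chromosomes kept in the totals, the small chromosomes differed little from the control in ARID1A KO. The direction differed between pairs. Differences ranged from -0.10 (SE 0.032, n = 2 against 1, 95% interval -0.19 to -0.01) for 20 with 22 to 0.05 (SE 0.063, interval -0.13 to 0.24) for 19 with 20, with a median of -0.02 over the 10 pairs and 0.03 over all chromosome pairs. Both KO libraries lay below the control in 4 of the 10 pairs, where 18.6% of all pairs did so, and above it in 1 of the 10, where 47.4% did. The 4 pairs below were 20 with 22, 16 with 22, 16 with 20 and 17 with 22. The 1 above was 16 with 19. No chromosome pair passed in limma's test after Benjamini-Hochberg adjustment (percent called 0), and 46 had an unadjusted p under 0.05. Of the 10 pairs, 16 with 22 and 20 with 22 had one, with adjusted p of 0.198 and 0.237.

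The direction of the KO difference turned with the scale for the pairs that lay above the control. With totals between chromosomes only, all 10 pairs were below the control in both KO libraries, where 26.9% of all pairs were, and the median difference was -0.10 against 0.011 over all pairs. With recovered contacts in place of balanced signal, the 10 differences were all negative with a median of -0.16, against 0.070 over all pairs, and 7 of the 10 lay below the control in both libraries, where 12.6% of all pairs did. None of the 10 passed on either scale.

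The amount of material from these chromosomes also moved with the KO group. Chromosomes 16, 17, 19, 20 and 22 together made up 13.2% and 12.8% of recovered off-diagonal contacts in KO, 10.03% and 10.26% in KD and 10.39% in the control. For chromosome 19 alone the share was 2.31% and 2.14% in KO, 1.53% and 1.59% in KD and 1.62% in the control. Balancing removes such differences between bins and recovered contacts keep them, and their part in the KO differences was not tested.

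The clearest difference lay between KO and KD. All 10 pairs were lower in KO than in KD, by a median of -0.16 against -0.064 over all chromosome pairs, and both KO libraries lay below both KD libraries in 9 of the 10, where 66.4% of all pairs did so. The remaining pair, 19 with 20, overlapped. By limma with Benjamini-Hochberg adjustment 6 of the 10 pairs were lower in KO, where 12.3% of all pairs were lower (31 pairs) and 1.58% were higher (4 pairs). The 6 were 16 with 22 (-0.28, SE 0.018, adjusted p = 0.0082), 20 with 22 (-0.28, SE 0.026, adjusted p = 0.012), 16 with 20 (-0.23, adjusted p = 0.018), 17 with 20 (-0.17, adjusted p = 0.038), 17 with 22 (-0.15, adjusted p = 0.033) and 16 with 17 (-0.14, adjusted p = 0.026). The 4 that did not pass were the 4 with chromosome 19, with differences between -0.20 and -0.06.

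This count leaned on the close agreement of the KD libraries. With 1 averaged KD sample, or with either KD library left out, 2 of the 10 pairs passed. Which pairs passed also turned with the scale. With totals between chromosomes only, 7 of the 10 passed, all lower in KO, where 13 of all chromosome pairs passed lower and 11 higher. These 7 were the 4 pairs with chromosome 19 (limma's adjusted p of 0.0144 to 0.0345) and 16 with 22, 17 with 20 and 17 with 22. On that scale 3 of the 6 above did not pass, 16 with 17 (adjusted p = 0.086), 16 with 20 (0.071) and 20 with 22 (0.108), although their differences were still -0.12, -0.19 and -0.28. With recovered contacts the same 6 passed together with 19 with 22 (limma's adjusted p = 0.025), all lower in KO. Over all chromosome pairs 24 passed lower and 2 higher with recovered contacts. The pairs 16 with 22, 17 with 20 and 17 with 22 passed on all 3 scales. Of these 3 only 16 with 22 kept its call under every alternative run, while 17 with 20 and 17 with 22 did not. KO and KD were made by different methods, CRISPR and a hairpin, so the method and the targeted gene cannot be told apart in this comparison.

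**Figure D2:**
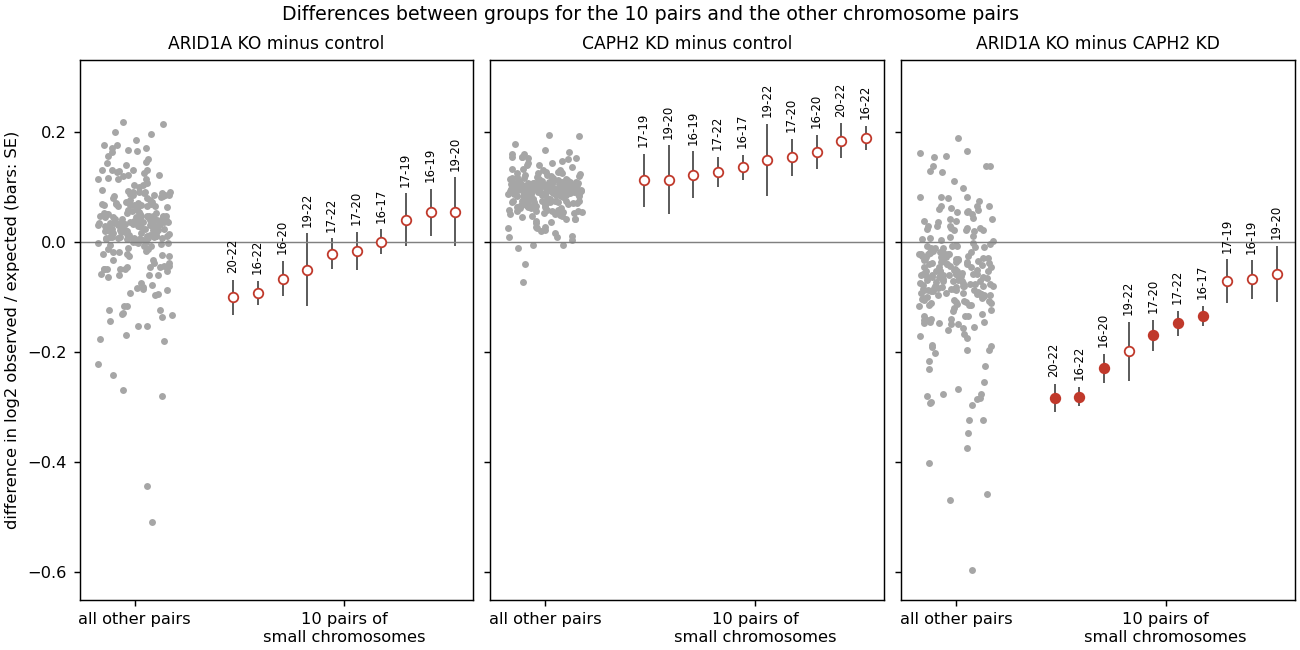
Difference in log2 observed over expected signal (vertical axis) for ARID1A KO minus control, CAPH2 KD minus control and ARID1A KO minus CAPH2 KD (panels), with all other chromosome pairs as grey points and the 10 pairs of small chromosomes as red points with their SE. Filled red points passed an adjusted p of 0.05; in the right panel 6 are filled, all below 0, and in the other panels none is.

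Chromosome arms split the pairs further. Within chromosome 16 the short arm had more contact than the long arm with every partner arm. The pair of 16p with 22q had values of 0.26 and 0.23 in KO, 0.56 and 0.57 in KD and 0.34 in the control, whereas 16q with 22q had -0.32 and -0.28 in KO, -0.05 and -0.06 in KD and -0.21 in the control. On chromosome 20 the long arm was the one in contact: 20q with 22q had 0.40 and 0.33 in KO, 0.66 and 0.67 in KD and 0.45 in the control, against -0.14 and -0.15 in KO, 0.11 and 0.12 in KD and -0.02 in the control for 20p with 22q. The highest member in the control was 19p with 22q, rank 4 of 802 arm pairs, at 0.35 and 0.44 in KO, 0.69 and 0.61 in KD and 0.47 in the control. The lowest was 19q with 20p at -0.71 and -0.54 in KO, -0.58 and -0.62 in KD and -0.74 in the control, at rank 128.

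In KD all 32 arm pairs were higher than the control by group means, where 96.3% of all 802 arm pairs were. The median difference was 0.14 against 0.095 over the 802 arm pairs. The largest difference was 0.27 (SE 0.044) for 17p with 20p, which did not pass (limma's adjusted p = 0.197). The next smallest p-values belonged to 16p with 22q (0.22, SE 0.036) and 17p with 20q (0.20, SE 0.036), with the same adjusted p. None of the 802 passed in limma's test of KD against control (percent called 0), and 200 had an unadjusted p under 0.05. In KO against control 19 of the 32 were lower, where 255 of the 802 were. The median was -0.02 against 0.03 over all, and none of the 32 passed, where 0.125% of all arm pairs did. The 3 smallest p-values in that comparison belonged to 20p with 22q (-0.12, adjusted p = 0.213), 16q with 17p (-0.13, adjusted p = 0.224) and 16p with 17p (-0.12, adjusted p = 0.286), none of which passed.

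Between KO and KD, 15 of the 32 arm pairs were lower in KO at an adjusted p of 0.05 in limma's test, where 10.7% of all arm pairs were lower. The largest differences were -0.32 for 16p with 22q (SE 0.030, adjusted p = 0.0086), -0.30 for 20q with 22q (SE 0.036, adjusted p = 0.014), -0.29 for 17p with 20p, -0.28 for 17p with 19p and -0.27 for 16p with 17p. The smallest among those that passed were -0.20 for 16q with 20q, -0.22 for 16q with 20p and -0.22 for 16p with 20p, followed by -0.24 for 17p with 22q and for 16q with 22q. The pair of 16q with 17q, at -0.08, did not pass (adjusted p = 0.171); its difference from that of 16p with 17p was not tested. With 1 averaged KD sample, or with either KD library left out, none of the 15 passed.

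**Figure D3:**
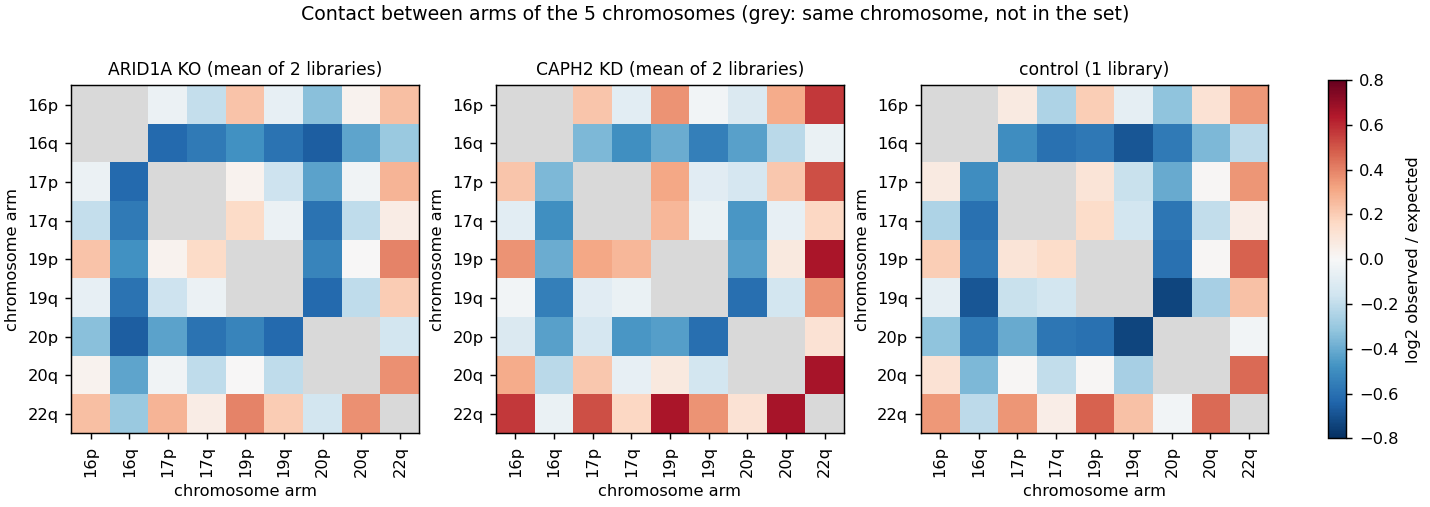
Log2 of observed over expected signal between the arms of chromosomes 16, 17, 19, 20 and 22 (both axes; red above expectation, blue below) as means of the 2 ARID1A KO libraries, the 2 CAPH2 KD libraries and as the 1 control library. Row 16q is blue in all 3 panels and so is row 20p apart from 20p with 22q in CAPH2 KD, while row 22q is mostly red, most strongly in CAPH2 KD, where 19p with 22q reached 0.69 and 0.61.

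Along each chromosome the contact with the other 4 was uneven. Over the 299 bins of the set, log2 of observed over expected ran from -1.42 to 0.76 in KO replicate 1, from -1.54 to 0.84 in KO replicate 2, from -1.46 to 1.12 and from -1.42 to 1.13 in the KD libraries and from -1.55 to 0.97 in the control. The 5 highest bins of the control all lay within 3 Mb of a chromosome end, and all 5 were assigned to compartment A. In general A is the gene-rich and active class of chromatin that Hi-C separates from the inactive compartment B. Here it was read within each chromosome from contacts alone, without gene or activity data. Coordinates are those of hg19, counted from 1. The first bin of the short arm of chromosome 16, chr16:1-1000000, had 0.72 and 0.84 in KO, 1.02 and 1.05 in KD and 0.97 in the control. The last bin of the long arm of chromosome 20 that was used, chr20:62000001-63000000, had 0.76 and 0.80 in KO, 1.12 and 1.13 in KD and 0.95 in the control. The other 3 were chr16:2000001-3000000, chr22:50000001-51000000 and chr17:80000001-81000000, at 0.90, 0.82 and 0.78 in the control. In these 5 bins both KO libraries lay below the control, as in 13.9% of all bins, and both KD libraries above it, as in 69.8% of all bins. The 5 were picked as the highest of the single control library, which by itself favours lower values in other libraries, so nothing is read from the KO side.

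The 5 lowest bins of the control were in compartment B and away from the ends. They were chr17:68000001-69000000 and chr17:67000001-68000000 on the long arm of chromosome 17, at -1.55 and -1.46 in the control, and the 3 adjoining bins of chr16:62000001-65000000, at -1.35, -1.28 and -1.28. The bin chr17:68000001-69000000 had -1.42 and -1.54 in KO and -1.46 and -1.42 in KD, so all libraries placed it near the bottom. Each of these 10 bins rested on 506 to 1931 recovered contacts with the set in the control.

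No bin passed a test in any comparison in limma after Benjamini-Hochberg adjustment over 2772 bins, with a percent called of 0 for KO against control, 0 for KD against control and 0 for KO against KD. Unadjusted p was under 0.05 for 323, 200 and 689 of all bins in that order of comparisons, and for 11, 66 and 161 of the 299. In KD both libraries lay above the control in 279 of the 299 bins, where 69.8% of all bins did so, with a median difference of 0.15 against 0.075 over all bins. In KO both libraries lay below the control in 105 of the 299, where 13.9% of all bins did, with a median of -0.01 against 0.072. Both KO libraries lay below both KD libraries in 227 of the 299, where 29.3% of all bins did, with a median of -0.17 against -0.0022. These 227 bins were spread over all 5 chromosomes: 66 of 76 on chromosome 16, 50 of 77 on 17, 27 of 53 on 19, 51 of 59 on 20 and 33 of 34 on 22.

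The bins with the smallest p are named although none passed. For KD against control they were chr17:20000001-21000000, with -0.14 and -0.06 in KD and -0.45 in the control, chr16:52000001-53000000, with -0.59 and -0.63 in KD and -0.94 in the control, and chr17:31000001-32000000, with 0.18 and 0.20 in KD and -0.13 in the control. Each had an adjusted p of 0.617. For KO against control they were again chr17:20000001-21000000, with -0.20 and -0.18 in KO, then chr17:57000001-58000000, with -0.14 and -0.05 in KO and -0.36 in the control, and chr17:12000001-13000000, with -0.54 and -0.60 in KO and -0.32 in the control. Their adjusted p was 0.379. All 3 of the KO bins lay on chromosome 17, and chr17:20000001-21000000 was higher in both KO and KD libraries than in the control that both share. For KO against KD the smallest p belonged to chr17:31000001-32000000, which had -0.18 and -0.23 in KO and 0.18 and 0.20 in KD, and then to the end bins of chromosomes 20 and 22 named above, each with an adjusted p of 0.108.

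Under other scales this comparison of bins made calls. With recovered contacts 241 of the 299 bins were lower in KO than in KD, where 796 of all 2772 bins were called. With totals between chromosomes 127 of the 299 were lower and 1 higher, where 462 of all 2772 bins were called.

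**Figure D4:**
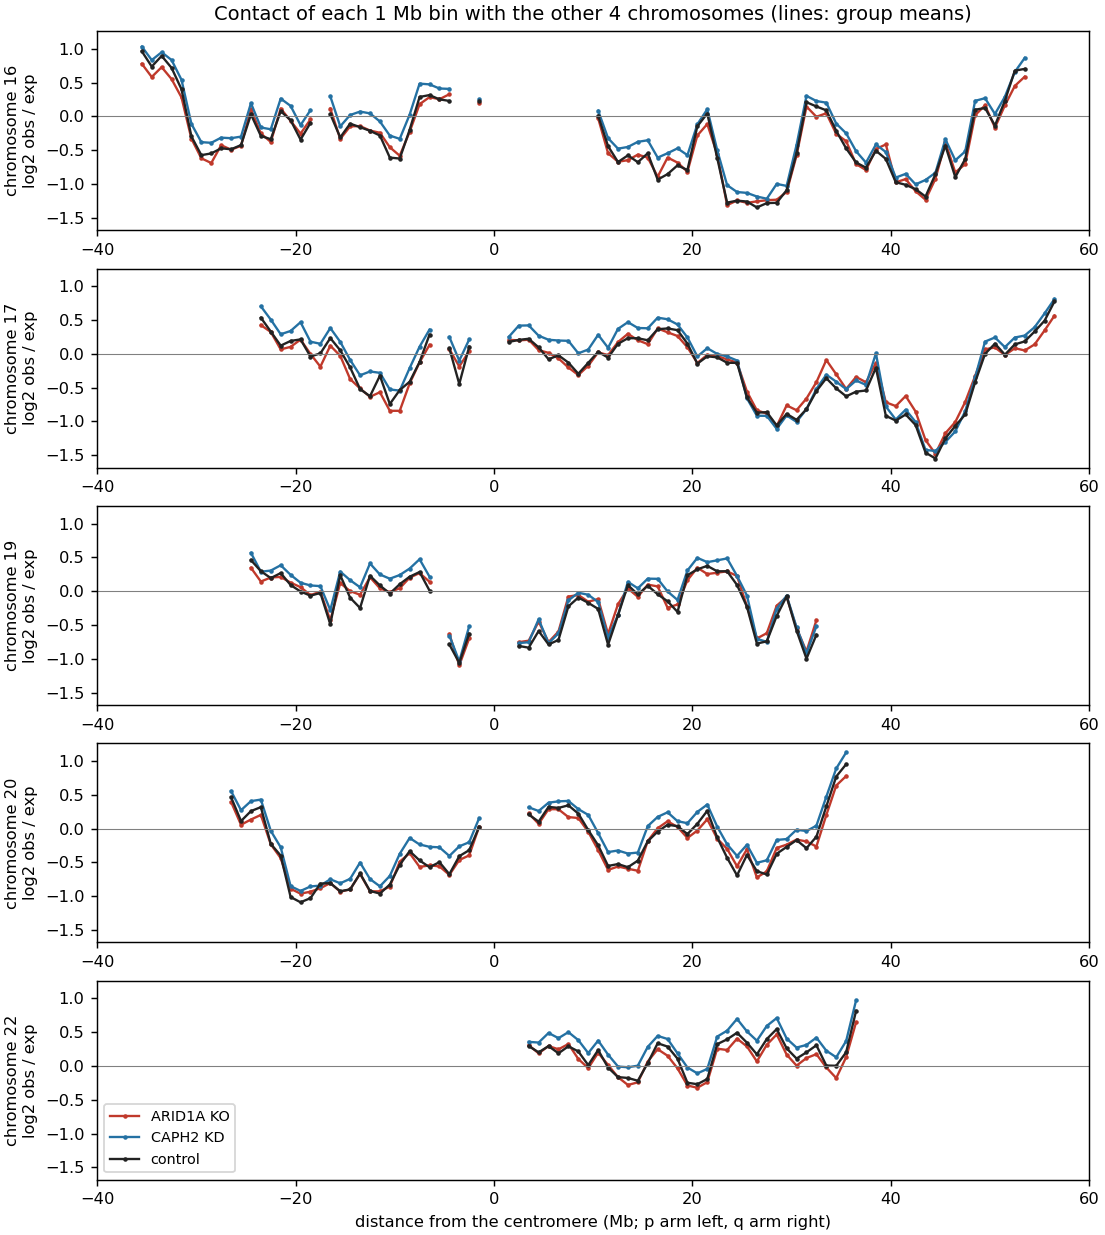
Log2 of observed over expected signal of each 1 Mb bin with the other 4 chromosomes (vertical axis) against its distance from the centromere in Mb (horizontal axis, short arm to the left), for chromosomes 16, 17, 19, 20 and 22 (panels), as means of the ARID1A KO libraries (red) and CAPH2 KD libraries (blue) and as the control (black). The profiles share their peaks and troughs in all groups, the KD line lies above the control over most of each chromosome, and the ends of 16, 17, 20 and 22 reach the highest values.

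The profiles varied with the compartments. Compartments were read from the first eigenvector of each chromosome's own contacts in the control, with its sign set by the share of contacts between chromosomes, and 145 of the 299 bins (48.5%) were A, against 46.5% of the other bins. Across the 299 bins of the control the eigenvector and the contact with the set correlated with Pearson's r = 0.759, given as a description because neighbouring bins share contacts. Since the sign of the eigenvector was set by contact between chromosomes, the positive direction of r, and A rather than B having the most contact, are partly fixed by that choice. Within single chromosomes r lay between 0.705 on chromosome 22 and 0.894 on chromosome 19. The eigenvectors of KO and KD correlated with that of the control with r of 0.973 to 0.996 over the 5 chromosomes.

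Members with both bins in A had the most contact: 0.55 and 0.63 in KO, 0.83 in both KD libraries and 0.69 in the control, over 8267 bin pairs. Mixed pairs had -0.51 and -0.45 in KO, -0.41 and -0.42 in KD and -0.56 in the control. Pairs with both bins in B had -0.50 and -0.49 in KO, -0.31 and -0.30 in KD and -0.46 in the control. The same A pairs elsewhere in the genome had only -0.69 and -0.59 in KO, -0.57 and -0.56 in KD and -0.65 in the control. On this scale the small chromosomes stood above the rest within each class. With totals between chromosomes only, members with both bins in B had 0.30 and 0.17 in KO and 0.35 in the control. Such pairs elsewhere had 0.27 and 0.29 in KO and 0.31 in the control. KO replicate 2 then lay below the rest in the B class, and the other libraries lay above it.

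KD was higher than the control in every class, while the direction of the KO difference varied between classes on the balanced scale. On the balanced scale the 3 classes were higher in KD by nearly the same amount, 0.13 for A with A, 0.15 for A with B and 0.15 for B with B. In the same order the KD differences were 0.17, 0.16 and 0.15 with recovered contacts. With totals between chromosomes they were 0.088, 0.067 and 0.045, so the near equality depended on the scale. The contrast between like and unlike pairs, taken as the mean of the A and B classes minus the mixed class, was 0.67 and 0.68 in KD and 0.68 in the control. In KO that contrast was 0.54 and 0.52, below the control by 0.15 (KO SD 0.014), while the spread of the single control is not known. The classes came from the control's own eigenvector, which may favour a higher contrast in the control. With each library's own eigenvector the contrast was 0.53 and 0.49 in KO and 0.68 and 0.67 in KD. On the balanced scale KO differed from the control by -0.10 in the A class (KO SD 0.059), by -0.04 in the B class (KO SD 0.0035) and by 0.08 in the mixed class (KO SD 0.045). With recovered contacts the B class differed by -0.13 and the mixed class by -0.087, and with totals between chromosomes the B class differed by -0.11 and the mixed class by -0.01, while the contrast stayed at -0.17 and -0.15. Outside the set the contrast was 0.39 and 0.43 in KO, 0.54 and 0.55 in KD and 0.50 in the control, so a lower contrast in KO was also seen over the rest of the genome. No test was run on these classes.

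Chromosome ends carried the strongest contacts among the small chromosomes. The classes of distance from an end were chosen after the bins had been seen. Members with both bins within 5 Mb of an end had 0.98 and 0.91 in KO, 1.29 and 1.28 in KD and 1.14 in the control, over 629 bin pairs. Members with 1 such bin had 0.05 and 0.08 in KO, 0.24 and 0.25 in KD and 0.13 in the control, and members with none had -0.32 and -0.25 in KO, -0.14 in both KD libraries and -0.30 in the control. Of the 40 end bins 77.5% were in compartment A. In KO the class of ends differed from the control by -0.20 and the class without ends by 0.014, and both KO libraries lay below the control in 26 of the 40 end bins, against 105 of the 299 bins of the set and 13.9% of all bins. Pairs of ends outside the set differed by 0.020, with values of 0.03 and -0.02 in KO and -0.01 in the control. In KD the 3 classes were higher by 0.14, 0.12 and 0.15.

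With recovered contacts the KO difference was -0.44 for pairs of ends and -0.10 for pairs without, and with totals between chromosomes -0.32 and -0.08. The class without ends thus turned its direction with the scale, whereas the ends were lower in KO on all 3. These scales rest on the same libraries and give no separate support. The classes were chosen after the highest bins of the single control had been seen at ends, which may favour lower values in KO. The KO difference at ends was not tested, and nothing is concluded from it.

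**Figure D5:**
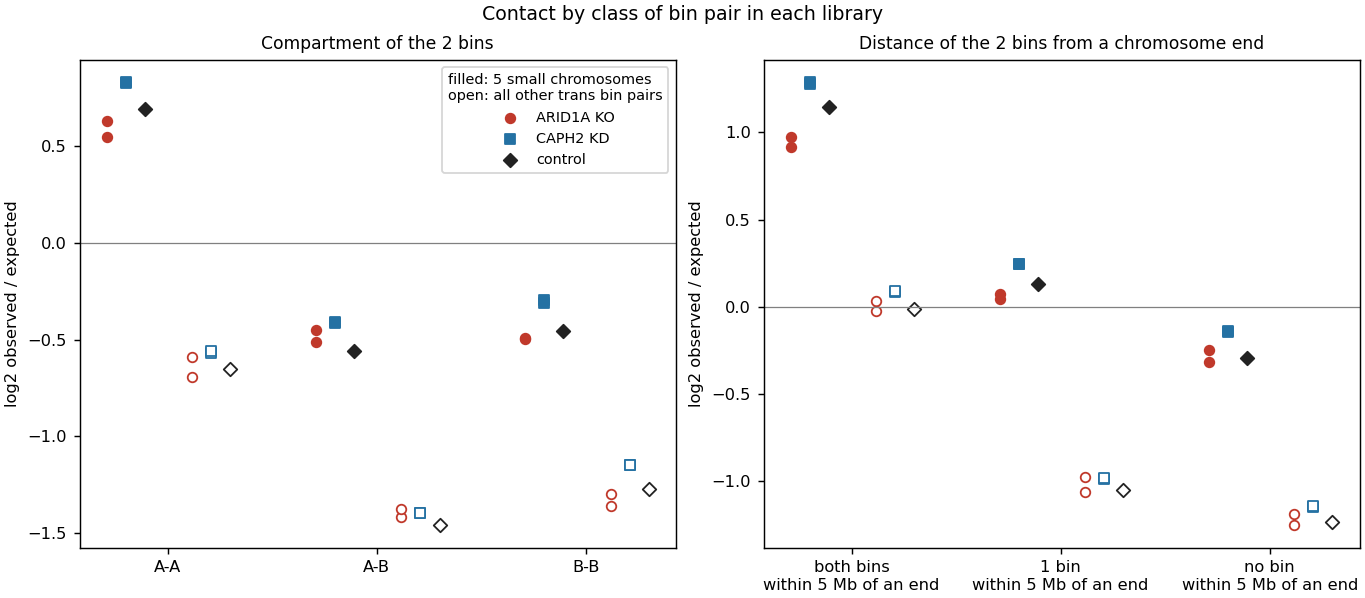
Log2 of observed over expected signal (vertical axis) by class of bin pair, for compartments (left) and for distance from a chromosome end (right), with 1 point per library for ARID1A KO (red circles), CAPH2 KD (blue squares) and the control (black diamonds). Filled points are the bin pairs among the 5 small chromosomes and open points all other bin pairs between chromosomes; filled points lie above the open ones in every class.

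Single bin pairs with very high contact were few. A strong join was defined as a bin pair between chromosomes with at least 10 times the expected signal in every library; 168 were found in all, and 3 of these were members. The first linked the end bins chr16:1-1000000 and chr17:80000001-81000000, at 20.6 and 17.4 times expectation in KO, 15.9 and 14.3 in KD and 16.3 in the control, from 52 and 36, 35 and 47, and 33 contacts. The second linked chr16:1-1000000 with chr20:62000001-63000000, at 14.8 and 19.2 in KO, 22.6 and 24.7 in KD and 22.6 in the control. Among the exact Poisson intervals of the second join, which cover counting error only, that of KO replicate 1 ended at 19.5 and that of KD replicate 2 began at 20.3, and all other intervals overlapped; the control's was 17.2 to 29.2.

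The third join lay away from the ends. It linked chr17:57000001-58000000 with chr22:36000001-37000000, at 19.5 and 23.2 times expectation in KO, 12.1 and 12.95 in KD and 11.9 in the control. It rested on 200 and 227 contacts in KO, against 135 in the control, the fewest of the 5 libraries, with intervals of 16.9 to 22.4 and 20.3 to 26.4 in KO, 10.2 to 14.1 and 11.4 to 14.7 in KD and 9.951 to 14.05 in the control. Both KO libraries thus lay above the other 3 by more than counting error, and the replicate spread of a single bin pair was not tested. The bin chr17:57000001-58000000 is also 1 of the 3 bins with the smallest p in KO against control.

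The 5 highest members outside the joins all paired chromosome ends: 16 with 22, 20 with 22, 17 with 20 by both of its ends, and the long-arm end of 16 with 20. The pair of chr20:62000001-63000000 with chr22:50000001-51000000 had 10.1 and 10.7 times expectation in KO, 16.3 and 14.7 in KD and 8.75 in the control, with 26 contacts in the control. The pair of chr16:1-1000000 with chr22:50000001-51000000 had 9.10 and 10.8 in KO, 13.9 and 14.0 in KD and 15.3 in the control. The bin chr20:62000001-63000000 took part in 4 of the 5.

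Leaving out the joins and the bins within 20 Mb of both of their ends removed 2234 members (6.36%). The order of groups did not change: the median difference of the 10 pairs was -0.03 in KO and 0.15 in KD against control. Between KO and KD 6 of the 10 again passed, where 34 of all chromosome pairs passed lower in KO and 4 higher. The level of 17 with 22 depended on it most, with 0.38 and 0.33 in KO, 0.63 and 0.58 in KD and 0.42 in the control without the joins. It then lay above 19 with 22, whose values without the joins were as given at the start, in KO replicate 1, both KD libraries and the control, and below it in KO replicate 2, so the highest of the 10 pairs depends on whether these regions are kept. The region left out around the third join takes in much of 17q and most of chromosome 22. What remains of 17 with 22 therefore comes largely from other parts of chromosome 17. With the joins kept, 17p with 22q had 0.36 in the control, against 0.05 for 17q with 22q.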

How the data were processed

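In situ Hi-C signal in 1 Mb bins was deposited by the authors as 1 symmetric matrix per library. The submitters' processing notes name Bowtie2 and the build hg19. For filters, binning and balancing, software is not given in the sources used here. Row sums show a balanced signal: 94.9% to 96.5% of row sums lay within 0.1% of their median. Dividing out bin factors recovered whole contacts for 98.7% to 99.5% of values (tolerance 0.05).

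Of 2811 bins measured in all 5 libraries, 39 with under 0.25 of the control's median recovered total were left out. Expected signal was the product of the partners' totals, without the diagonal, over the library total. Log2 ratios for all chromosome pairs, 802 arm pairs (arms of at least 5 bins) and 2772 bins were tested with limma 3.58.1 (R 4.3.3), over 3 groups with 2 residual degrees of freedom, with Benjamini-Hochberg adjustment over each whole table. Recovery and fits were tested on simulated data. A bin's ratio is to the other chromosomes of the set; for bins elsewhere it is to the same 5 chromosomes.

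All 10 chromosome pairs are named; arm pairs are the 5 largest and 5 smallest differences that passed, else the 3 smallest p; bins are the 3 smallest p with the 5 highest and lowest of the control; bin pairs are all joins and the next 5. Members and lists were chosen with earlier results of these data known.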

Additional observations from a re-analysis of the deposited data

How the results depend on the processing

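Counts of calls depended on where the spread came from. Leaving out 1 library gave ranges of 1 to 214 chromosome pairs for KO against control (0 to 6 members), 0 to 244 for KD against control (0 to 10) and 16 to 230 for KO against KD (2 to 10). For arm pairs the ranges were 4 to 539 (0 to 24), 0 to 685 (0 to 32) and 20 to 639 (0 to 32), and for bins 0 to 1257 (0 to 68), 0 to 734 (0 to 158) and 0 to 1485 (0 to 230). The high ends came from leaving out a KO library, which leaves the KD pair as the only measure of spread and assumes that the lone library varies likewise. With only the 2 groups compared, 244 chromosome pairs (10 members) passed in KD and 1 in KO against control. With the KD libraries averaged to 1 sample, an alternative chosen after seeing the data, 1 chromosome pair and 4 arm pairs passed between KO and control, and 16 chromosome pairs (2 members) and 20 arm pairs (0 members) for KO against KD.

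Scale mattered next. For KO against control, totals with the diagonal gave 14 chromosome pairs, each library's median set to 0 gave 4, and totals between chromosomes, recovered contacts, and both together (also chosen after seeing the data) gave 1 each. For KO against KD the diagonal gave 183 (10 members; 4 higher, 179 lower), the median at 0 gave 65 (27 higher, 38 lower), totals between chromosomes 24 (11 higher, 13 lower) and both together 19 (8 higher, 11 lower), against 35 (4 higher, 31 lower) as reported. For arm pairs, totals between chromosomes gave 2 in the first comparison and 65 between KO and KD (37 higher, 28 lower, against 12 and 86 as reported). Both together gave 2 in the first comparison and 76 between KO and KD (36 higher, 40 lower), and recovered contacts gave 23 members. For bins of KO against KD, totals between chromosomes gave 462 (128 members), recovered contacts 796 (241) and both together 441 (168).

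Same-numbered libraries of KO and KD did not deviate together (r = 0.03 over chromosome pairs), so the numbers do not pair them. With a replicate block, 24 chromosome pairs (3 members) passed for KO against KD, 7 arm pairs for KO against control, 1 arm pair for KD against control and 103 bins (19 members) for KO against KD.

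Signs turned for small KO differences. For 16 with 17 the difference became -0.073 with the diagonal, -0.035 with the median at 0, -0.074 with totals between chromosomes, -0.067 with recovered contacts, -0.014 with both, -0.00011 without joins, -0.0054 with the replicate block and -0.0075 without KO replicate 2, against 0.0077 without KO replicate 1. With the diagonal, totals between chromosomes, recovered contacts and both, in that order, 16 with 19 became -0.017, -0.091, -0.061 and -0.058, 17 with 19 became -0.020, -0.093, -0.053 and -0.015, and 19 with 20 became -0.0050, -0.063, -0.081 and -0.045, and with the median at 0 these 3 stayed above 0. Leaving out a KO library gave -0.0071 to 0.087 for 17 with 19, -0.011 to 0.12 for 19 with 20, -0.046 to 0.012 for 17 with 20 and -0.12 to 0.016 for 19 with 22, and -0.12 to 0.0068 for 19 with 20 against KD. No KD difference from the control changed sign in the 10 pairs under any alternative run.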
